A study of Caenorhabditis elegans with 12 samples.

Results

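The genes described here are the 54 Caenorhabditis elegans genes that have values in at least 1 of the authors' 3 tables and whose WormBase symbol starts with cut-, cutl-, mlt-, noah-, lpr-, nas-, dpy-, rol-, sqt-, bli- or fbn-. They are 54 of the 2949 genes in the union of those tables, and 54 of the 128 genes with these 11 name stems in the table of gene names. Transcripts were measured by sequencing total RNA, after removal of ribosomal RNA, from early embryos of 3 mutants and the wild type N2 (Bristol). The mutants were a double mutant with lin-65(delta) on chromosome I combined with met-2(n4256) on chromosome III, a strain with lin-65(delta) alone and a strain with met-2(n4256) alone. Each strain gave 3 libraries that the labels call independent biological replicates. All were grown at 20 °C for 60 to 65 h after synchronization and collected before the bean stage, at about 1 to 300 cells. The growth time depended on the strain, so growth time and genotype cannot be told apart. The embryos are whole and pooled, and in such bulk RNA fewer cells of a type and less RNA per cell cannot be told apart. The values are log2 ratios of single mutant libraries to a baseline read as N2, so a value of 1 is a transcript level 2 times the baseline. N2 has no column of its own.

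The cuticle of the worm is a layered extracellular matrix that the epidermis secretes at its apical face. In the embryo the first cuticle is laid down during elongation, which follows the bean stage, and a new one is made at every molt. Cross-linked collagens form most of it, cuticlins form its insoluble part, lipocalin-related proteins belong to the transient matrix that precedes it, and proteases of the astacin family process matrix proteins. MET-2 is a histone H3 lysine 9 methyltransferase, the counterpart of mammalian SETDB1, and LIN-65 is a protein it works with. The comparison asks how far embryonic transcripts of cuticle genes differ when MET-2, LIN-65 or both are missing.

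Each mutated gene was low in the strains labelled as carrying its mutation. The transcript of lin-65 stood at −6.04 ± 0.21 in the double mutant and −5.88 ± 0.09 in lin-65, and met-2 stood at −2.76 ± 0.06 in the double mutant and −2.36 ± 0.04 in met-2 (SD, n = 3). All values after a ± sign here are SDs over 3 libraries of 1 mutant and do not hold the spread of N2. Sequencing depth is unknown because the tables give no counts. Replicate 1 of met-2 was unlike the other met-2 libraries: the median of the 54 genes was 1.57 in it and 1.14 in each of replicates 2 and 3, and it was the highest met-2 library for 50 of the 54. Over all 2949 genes the same library was the highest for 83.5%. The same median was 1.68, 1.61 and 1.59 in double mutant libraries, and 0.81, 0.98 and 0.84 in lin-65 libraries. The main counts and medians of comparisons with met-2 are therefore also given without its replicate 1; family counts of listed genes and single gene values include it.

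In all 3 mutants nearly all of the 54 genes stood above the baseline. Their median was 1.61 in double mutant embryos, 0.86 in lin-65 and 1.25 in met-2. Of them 48 genes were above 0 in all 9 libraries, against 84.6% of all 2949 genes. The authors' tables listed 52 as higher in double mutant embryos, 17 in lin-65 and 44 in met-2. Over all 2949 genes the tables listed 85% as higher in double mutant embryos, 29% in lin-65 and 65.2% in met-2. The shares listed as lower were 4.41%, 4.04% and 0.644% in the same order. A mean of at least 2 was reached by 18 of the 54 genes in double mutant embryos, 2 in lin-65 and 10 in met-2, against 21.7%, 1.66% and 9.7% of all genes. Because the genes were taken from these tables, the counts describe the selection and carry no test against N2. Leaving out met-2 replicate 1, 36 genes rather than 44 kept a met-2 mean of 1 or more, and the met-2 median was 1.12. Every gene had a mean of at least 1 in absolute size, above or below 0, in its own table. In the double mutant the member just inside was cutl-24 at 1.04 and the one just outside was cutl-23 at 0.93, and in met-2 they were dpy-14 at 1.00 and nas-28 at 0.92. In lin-65 the size of the mean did not decide alone, since cutl-28 was listed at 1.01 while cut-3 at 1.59, cut-2 at 1.47 and cut-5 at 1.34 were not.

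**Figure D1:**
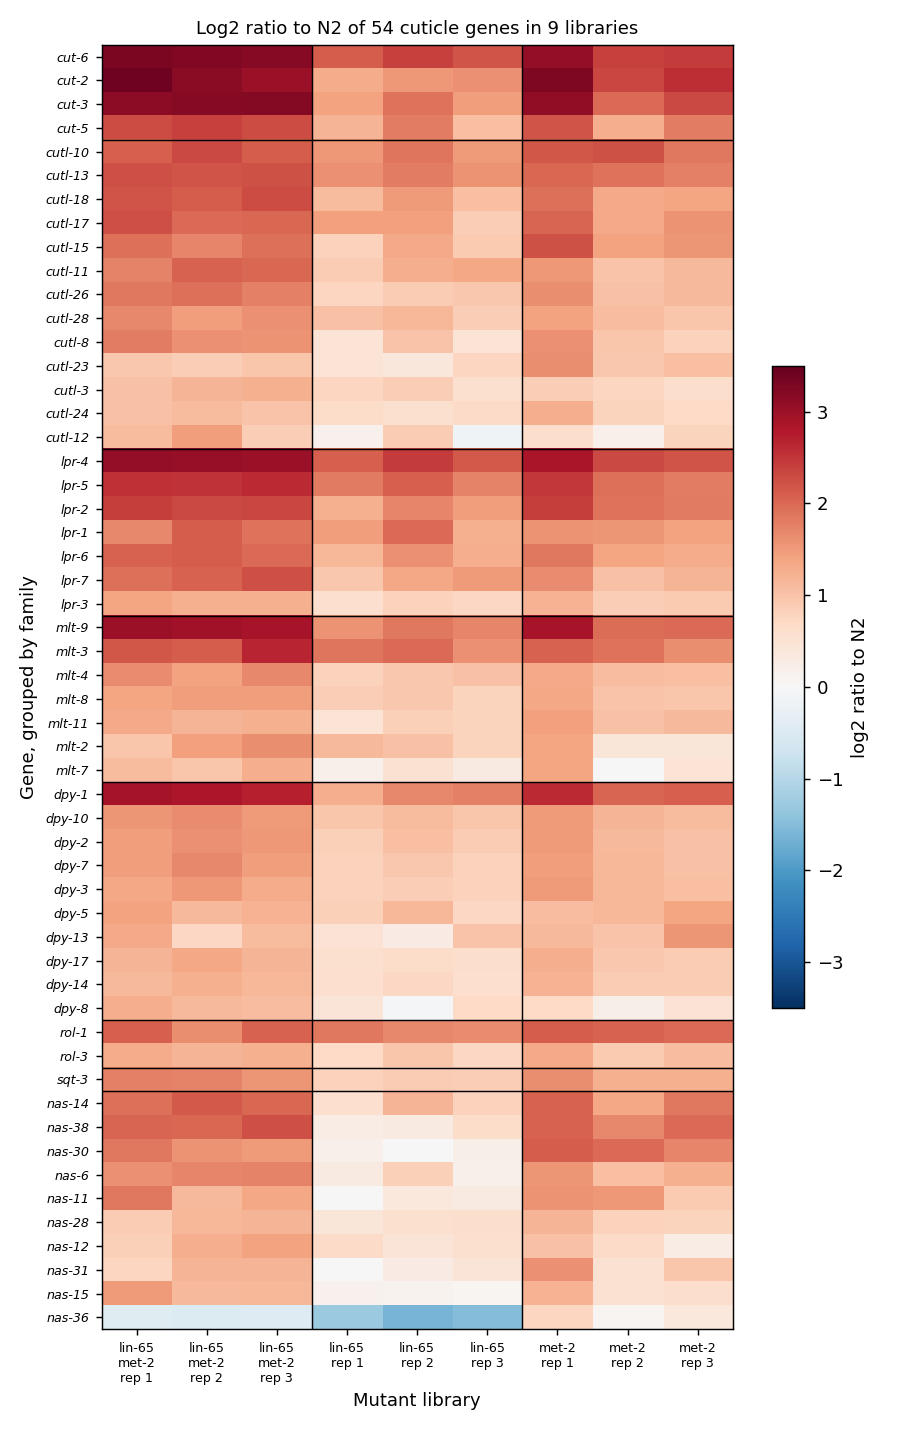
Log2 ratio to N2 of each of the 54 genes (rows, grouped by family) in each of the 9 mutant libraries (columns, grouped by mutant), with red above and blue below the baseline. The rows of cut-2, cut-3, cut-6 and lpr-4 are the darkest in the double mutant, the lin-65 columns are paler, and nas-36 alone is below 0 in all double mutant and lin-65 libraries.

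Cuticlins had the highest family medians, at 3.19 in the double mutant, 1.53 for lin-65 and 2.55 for met-2. Of 6 cut- genes 4 had values, and all 4 were listed higher in double mutant embryos, 1 in lin-65 and 4 in met-2. The cuticlin cut-6, which carries a zona pellucida domain and is known from the dauer cuticle, stood at 3.28, 3.24 and 3.20 in the double mutant libraries, 2.11, 2.40 and 2.19 in lin-65 and 3.07, 2.39 and 2.44 in met-2. All its double mutant values lay above those of the other mutants, and lin-65 and met-2 overlapped. For cut-3, a zona pellucida protein of the lateral ridges called alae, the values were 3.14, 3.17 and 3.22 in double mutant embryos, 1.41, 1.89 and 1.47 in lin-65 and 3.09, 1.97 and 2.32 in met-2. The 3 groups of cut-3 values did not overlap, with the double mutant highest and lin-65 lowest. The related cut-5, also an alae gene, gave 2.28, 2.38 and 2.27 in double mutant embryos, 1.18, 1.80 and 1.04 in lin-65 and 2.20, 1.26 and 1.80 in met-2. Its lin-65 and met-2 values overlapped. The fourth, cut-2, encodes a cuticlin of repeated short motifs without that domain, and stood at 3.42, 3.16 and 3.03 in double mutant embryos, 1.30, 1.52 and 1.59 in lin-65 and 3.27, 2.35 and 2.58 in met-2. Here lin-65 lay below both other mutants, which overlapped because of met-2 replicate 1.

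Cuticlin-like genes, which share the zona pellucida domain with cuticlins, had lower values. Of 29 cutl- genes 13 had values, with 12 listed higher in double mutant embryos, 5 in lin-65 and 10 in met-2. Family medians were 1.84, 1.01 and 1.22 in those mutants. The highest mean over 9 libraries belonged to cutl-10, at 2.08, 2.32 and 2.12 in double mutant embryos, 1.53, 1.88 and 1.49 in lin-65 and 2.17, 2.23 and 1.84 in met-2, so that double mutant and met-2 overlapped. Next was cutl-13, at 2.23 ± 0.03 in double mutant embryos, 1.66 ± 0.12 in lin-65 and 1.89 ± 0.12 in met-2, where the double mutant was highest and the single mutants overlapped. The third, cutl-18, gave 2.20, 2.13 and 2.28 in double mutant embryos, 1.12, 1.49 and 1.04 in lin-65 and 1.93, 1.34 and 1.37 in met-2. Again only the single mutants overlapped. At the other end, cutl-12 stood at 1.10, 1.46 and 0.87 in double mutant embryos, 0.15, 0.90 and −0.16 in lin-65 and 0.60, 0.17 and 0.79 in met-2, with a spread in lin-65 (SD 0.54) that covered most of the difference. The gene listed in met-2 alone was cutl-23, at 0.93 ± 0.07 in double mutant embryos, 0.53 ± 0.18 in lin-65 and 1.20 ± 0.37 in met-2.

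All 7 lipocalin-related genes had values, with 7 higher in double mutant embryos, 6 in lin-65 and 7 in met-2. In the worm LPR-1 and LPR-3 keep narrow epithelial tubes open and belong to apical matrices. Highest was lpr-4, at 3.07, 3.04 and 3.01 in double mutant embryos, 2.08, 2.45 and 2.14 in lin-65 and 2.85, 2.32 and 2.20 in met-2. The next gene, lpr-5, stood at 2.55, 2.52 and 2.62 in double mutant embryos, 1.81, 2.08 and 1.75 in lin-65 and 2.47, 1.94 and 1.78 in met-2. In both the double mutant lay above every single mutant library and the single mutants overlapped. For lpr-2 the values were 2.43, 2.32 and 2.35 in double mutant embryos, 1.24, 1.71 and 1.47 in lin-65 and 2.42, 1.91 and 1.82 in met-2, with lin-65 below both other mutants. The lpr-7 libraries gave 1.92, 2.07 and 2.24 in double mutant embryos, 0.95, 1.35 and 1.49 in lin-65 and 1.66, 1.01 and 1.18 in met-2, with the double mutant above both single mutants and these overlapping. Lowest was lpr-3, at 1.39, 1.24 and 1.24 in double mutant embryos, 0.60, 0.80 and 0.72 in lin-65 and 1.23, 0.87 and 0.90 in met-2, where the 3 groups did not overlap. In the annotation lpr-3, lpr-6, lpr-5 and lpr-4 follow each other on chromosome X with 0 protein-coding genes between them. Their means in that order were 1.29, 2.06, 2.57 and 3.04 in double mutant embryos, 0.70, 1.35, 1.88 and 2.22 in lin-65 and 1.00, 1.51, 2.06 and 2.45 in met-2, so the order of the 4 genes was the same in each mutant. Their sequences are related, and how the authors counted reads shared between copies is not given in the sources used here.

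Among genes named for body shape, the members were mostly collagens. Of 25 dpy- genes 10 had values: 5 of the 6 collagens of the circumferential furrows, 4 of 5 other collagens of that name, and dpy-1. None of the 5 dpy- genes of the dosage compensation machinery, which share the name and act on X chromosomes, had a row. The tables listed 10 dpy- genes as higher for the double mutant, 2 for lin-65 and 9 for met-2. The furrow collagen dpy-10 stood at 1.54, 1.64 and 1.50 in double mutant embryos, 0.97, 1.10 and 0.97 in lin-65 and 1.49, 1.18 and 1.11 in met-2. Its neighbour in that class dpy-2, separated from it by 1 protein-coding gene on chromosome II, stood at 1.48, 1.61 and 1.51 in double mutant embryos, 0.83, 1.06 and 0.88 in lin-65 and 1.48, 1.13 and 1.03 in met-2. Of the furrow collagens, dpy-10, dpy-2, dpy-7 and dpy-3 lay within 1.40 to 1.56 in double mutant embryos, 0.82 to 1.02 in lin-65 and 1.21 to 1.26 in met-2. The exception was dpy-8, at 1.28, 1.14 and 1.09 in double mutant embryos, 0.44, −0.07 and 0.69 in lin-65 and 0.69, 0.22 and 0.51 in met-2. Its double mutant values lay above both single mutants, and it was listed for the double mutant alone. The other collagens dpy-5, dpy-13, dpy-14 and dpy-17 had means of 1.05 to 1.25 in double mutant embryos, 0.59 to 0.91 in lin-65 and 1.00 to 1.23 in met-2. The value of dpy-1 was higher than that of every collagen of this name, at 2.92, 2.84 and 2.72 in double mutant embryos, 1.28, 1.69 and 1.77 in lin-65 and 2.60, 2.04 and 2.10 in met-2, with no overlap between groups.

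The Squat and Roller genes gave 3 members. SQT-3 is a collagen needed from embryonic life, and DPY-17 is known to be required for its secretion. The sqt-3 values were 1.77, 1.73 and 1.53 in double mutant embryos, 0.81, 0.88 and 0.87 in lin-65 and 1.63, 1.25 and 1.24 in met-2, with lin-65 below both others. For rol-3, a receptor tyrosine kinase gene, they were 1.30, 1.19 and 1.24 in double mutant embryos, 0.69, 0.96 and 0.71 in lin-65 and 1.32, 0.92 and 1.07 in met-2, which overlapped both others. A different order was seen for rol-1, at 2.08, 1.62 and 2.06 in double mutant embryos, 1.85, 1.67 and 1.66 in lin-65 and 2.13, 2.07 and 1.98 in met-2, where the double mutant overlapped both single mutants. None of the 6 bli- (blister) genes, the 2 noah- genes or the 1 fbn- gene had a row.

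Of the 8 genes named for molting defects 7 had values, and 7 were listed higher in double mutant embryos, 2 in lin-65 and 5 in met-2. The highest was mlt-9, at 2.99, 2.94 and 2.87 in double mutant embryos, 1.57, 1.84 and 1.70 in lin-65 and 2.88, 1.95 and 1.99 in met-2. Here lin-65 lay below both other mutants, and met-2 replicate 1 reached into the range of the double mutant. MLT-2, MLT-3 and MLT-4 are ankyrin repeat proteins that bind the NEKL kinases, regulators of endocytosis in the epidermis. Of these, mlt-3 stood at 2.17, 2.11 and 2.67 in double mutant embryos, 1.88, 1.97 and 1.61 in lin-65 and 2.06, 1.90 and 1.64 in met-2. The double mutant lay above the single mutants, which overlapped. The values of mlt-4 were 1.66, 1.40 and 1.68 in double mutant embryos, 0.81, 0.95 and 1.01 in lin-65 and 1.34, 1.09 and 1.07 in met-2, with no overlap between groups. The peroxidase gene mlt-7, whose product cross-links collagens, was lowest, at 1.11, 0.96 and 1.28 in double mutant embryos, 0.18, 0.53 and 0.30 in lin-65 and 1.38, −0.02 and 0.49 in met-2. Its met-2 libraries spread over more than the difference between the means.

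**Figure D2:**
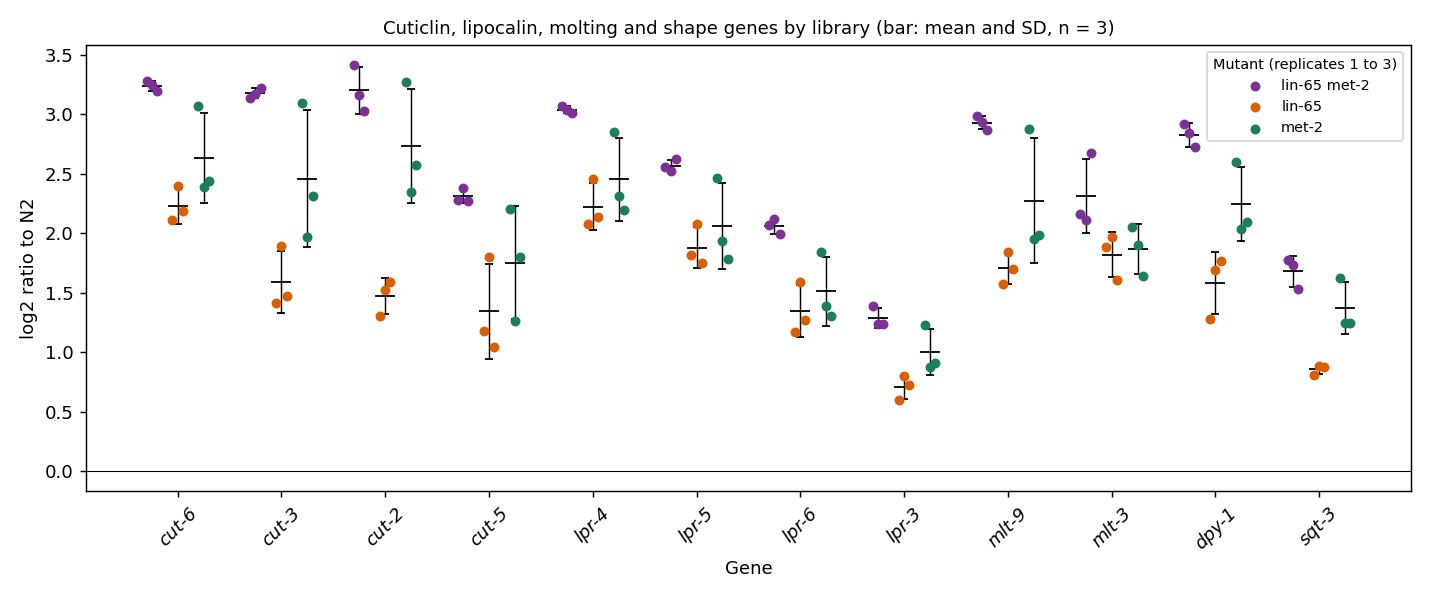
Log2 ratio to N2 in each library (points) with the mean and SD of 3 libraries (black) for 12 cuticlin, lipocalin-related, molting and shape genes in the double mutant, lin-65 and met-2. For mlt-9 and cut-3 the first met-2 point lies near the double mutant points while the other met-2 points lie lower.

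Of the astacin protease genes none was listed higher in lin-65. Of 37 nas- genes 10 had values, with 9 listed higher in double mutant embryos, 0 in lin-65 and 6 in met-2. Family medians were 1.35, 0.33 and 1.15 in those mutants. Members of this family have different known roles, among them release of the old cuticle (NAS-36), formation of the pharyngeal grinder (NAS-6) and regulation of sleep (NAS-38). The nas-38 libraries gave 2.04, 2.02 and 2.25 in double mutant embryos, 0.26, 0.30 and 0.65 in lin-65 and 2.06, 1.69 and 1.99 in met-2. Those of nas-30 gave 1.84, 1.56 and 1.50 in double mutant embryos, 0.19, 0.02 and 0.20 in lin-65 and 2.13, 1.99 and 1.72 in met-2. In both, double mutant and met-2 overlapped and lin-65 lay more than 1 log2 unit below them. The means of nas-14 were 2.03 ± 0.12 in double mutant embryos, 0.86 ± 0.32 in lin-65 and 1.75 ± 0.36 in met-2. Its lin-65 libraries again lay below all others. The means of nas-6 were 1.68 ± 0.07 in double mutant embryos, 0.45 ± 0.35 in lin-65 and 1.27 ± 0.25 in met-2. Those of nas-11 were 1.44 ± 0.37, 0.23 ± 0.21 and 1.34 ± 0.36 in the same order. The remaining nas-28, nas-12, nas-31 and nas-15 had means of 1.05 to 1.26 in double mutant embryos, 0.11 to 0.55 in lin-65 and 0.65 to 1.03 in met-2.

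The molting protease nas-36 was the 1 member with a negative mean in the double mutant and in lin-65. It stood at −0.44, −0.49 and −0.45 in double mutant embryos, −1.30, −1.63 and −1.53 in lin-65 and 0.75, 0.07 and 0.38 in met-2. Every library of the double mutant and of lin-65 lay below 0 and every met-2 library above it, and it was the 1 member listed as lower, in lin-65. No other mutant listed nas-36, so it is a member only through its low lin-65 values. Over all 2949 genes the lin-65 table listed 4.04% as lower.

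**Figure D3:**
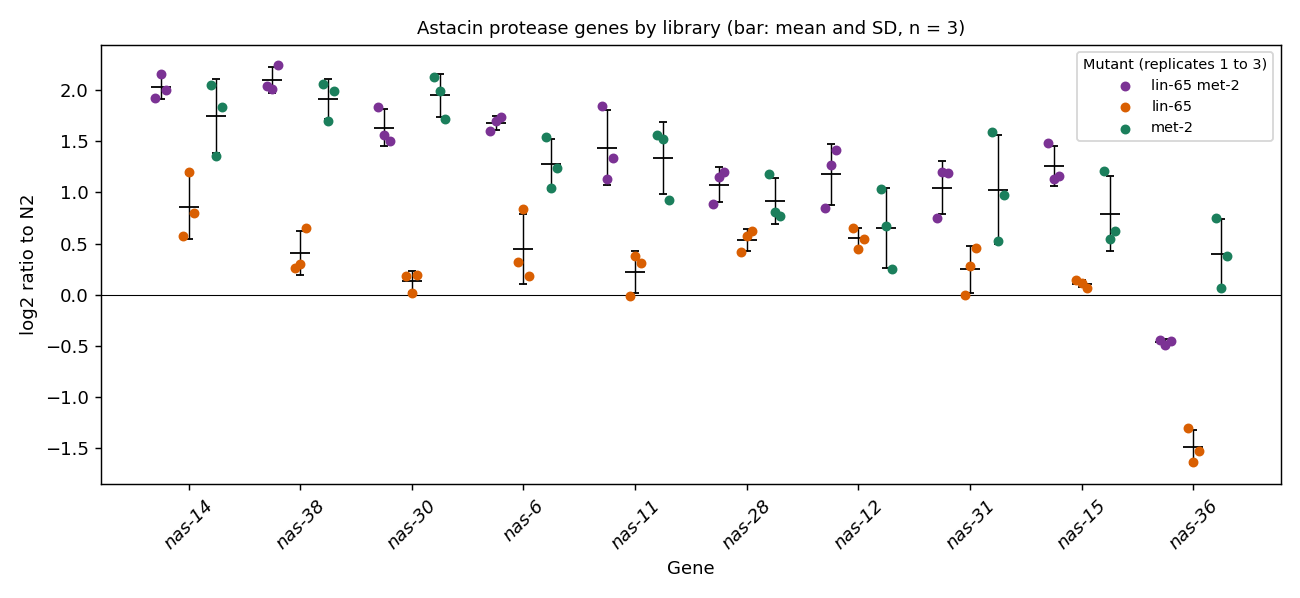
Log2 ratio to N2 in each library (points) with the mean and SD of 3 libraries (black) for the 10 astacin genes with values, ordered by their mean over 9 libraries. In 9 of the 10 genes all lin-65 points lie below all met-2 points, and nas-36 is below 0 in the double mutant and in lin-65.

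Differences between mutants, which do not use the N2 baseline, were tested with limma on all 2949 genes and 9 libraries, with Benjamini-Hochberg adjustment. A gene listed for only 1 or 2 of the mutants was bound to differ somewhat between mutants, so counts are read against the share called among all listed genes. Of the 54 genes 26 were listed for the double mutant and met-2 but not for lin-65, against 38.4% of all genes. Among these were nas-30, nas-38 and cut-2. For the double mutant alone 9 of the 54 were listed, dpy-8 among them, against 24.3% of all genes. The median of all genes was also shifted in each comparison, though some genes went the other way. The median difference over the 2949 genes was 0.32 for the double mutant minus met-2, 0.70 for the double mutant minus lin-65 and −0.42 for lin-65 minus met-2. For the 54 genes the corresponding medians were 0.37, 0.74 and −0.38. Without met-2 replicate 1 the median over the 2949 genes was 0.47 for the double mutant minus met-2 and −0.26 for lin-65 minus met-2, and over the 54 genes it was 0.47 and −0.22.

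Values were lower in lin-65 than in met-2 for 19 of the 54 genes and higher for 0. Among all genes 41.9% were lower and 4.92% higher, so the share was not above the background. The astacin genes made up 8 of the 19. For lin-65, 0 astacin genes were listed as higher and 1 as lower, so the differences of this family were partly fixed by the selection. The other called genes were the cuticlins cut-2 and cut-3, cutl-15 and cutl-23, the shape genes dpy-1, dpy-13, dpy-17 and sqt-3, and lpr-2, mlt-9 and mlt-11. By family, 8 of 10 nas- genes, 2 of 4 cut- genes, 3 of 10 dpy- genes, 2 of 13 cutl- genes, 2 of 7 mlt- genes and 1 of 7 lpr- genes were lower in lin-65. The median difference was −0.86 for nas- genes and −0.18 for lpr- genes, on either side of the −0.42 of all genes. These medians without met-2 replicate 1 were −0.71 for nas- genes, 0.00 for lpr- genes and −0.26 for all genes, and 7 nas-, 2 cut-, 2 dpy-, 2 cutl-, 1 mlt- and 0 lpr- genes were lower in lin-65. The contrast of families was not tested.

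The largest differences between the single mutants belonged to 3 proteases. Of these, nas-36 was a member only through its low lin-65 values, so its difference was partly fixed by the selection. So were those of nas-30, nas-38 and cut-2, which were listed for the double mutant and met-2 but not for lin-65. For nas-36 lin-65 was 0.270 times met-2 (log2 difference −1.89, SE 0.19, limma adjusted p = 8.52e-07), for nas-30 0.284 times (−1.82, SE 0.18, adjusted p = 6.14e-07) and for nas-38 0.351 times (−1.51, SE 0.18, adjusted p = 4.97e-06). In each of the 3 genes all lin-65 libraries were below all met-2 libraries. The cuticlin cut-2 followed at −1.26 (SE 0.22, limma adjusted p = 2.23e-04). Without met-2 replicate 1 these 4 differences were −1.71, −1.73, −1.44 and −0.99, and each still passed. For other genes no difference was shown, as for lpr-7 at −0.02 with a 95% interval from −0.45 to 0.41 and for lpr-1 at 0.04 with an interval from −0.38 to 0.46. The interval of lpr-7 holds the median difference of all genes, −0.42, and that of lpr-1 does not. Without met-2 replicate 1, 15 genes were lower and mlt-2 was higher by 0.55 (limma adjusted p = 0.0400), against 31% lower and 5.83% higher among all genes. Without lin-65 replicate 1, 10 genes were lower, and 30.6% of all genes were called in either direction. All lin-65 libraries were below all met-2 libraries for 30 of the 54 genes and above them for 0, against 47.1% and 5.8% of all genes. With the library medians set to 0, which removes the general shift, 8 genes were lower, 6 of them nas- genes and the others cut- genes, and 2 were higher, 1 cutl- gene and 1 mlt- gene, against 17.7% lower and 12.4% higher among all genes.

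**Figure D4:**
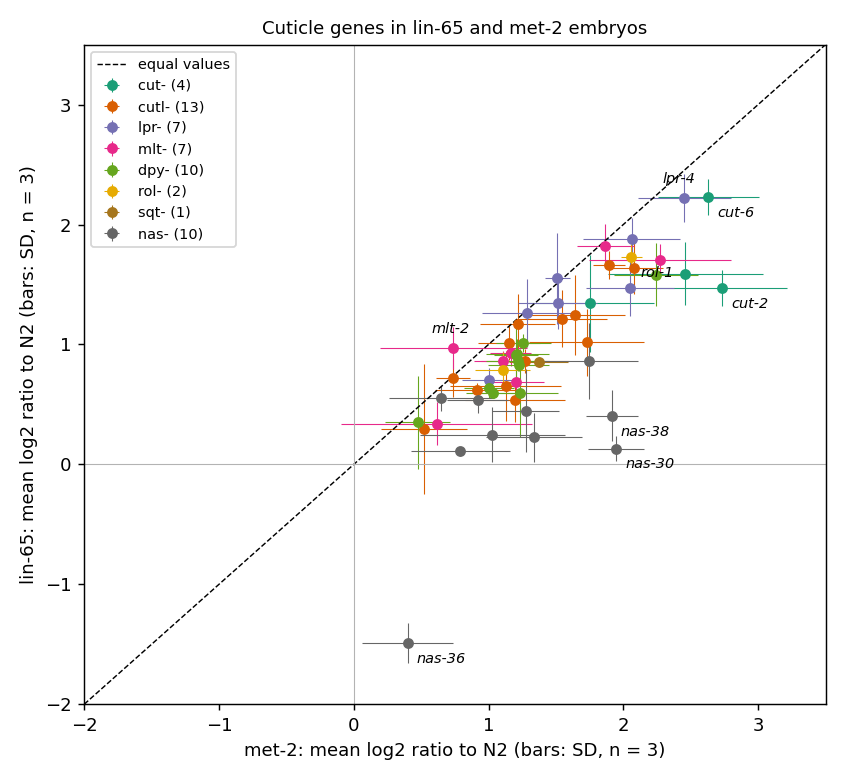
Mean log2 ratio to N2 in lin-65 (vertical axis) against met-2 (horizontal axis) for the 54 genes, coloured by family, with SD bars over 3 libraries each and a dashed line of equal values. Of the lpr- genes, lpr-1 and lpr-7 lie near the line, and nas-30, nas-38 and nas-36 lie farthest below it.

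The double mutant had higher values than lin-65 alone for 48 of the 54 genes and lower values for 0, against 74.3% higher and 4.61% lower among all genes. All 10 nas- genes and all 4 cut- genes were among them, with median differences of 1.16 and 1.30, and 12 of 13 cutl-, 8 of 10 dpy-, 6 of 7 lpr- and 6 of 7 mlt- genes. The cuticlin cut-2 was 3.32 times as high in the double mutant as in lin-65 (log2 difference 1.73, SE 0.22, limma adjusted p = 1.09e-05), nas-38 3.24 times (1.70, SE 0.18, adjusted p = 2.31e-06) and cut-3 3.01 times (1.59, SE 0.24, adjusted p = 4.35e-05). In all 3 genes every double mutant library was above every lin-65 library. These 3 genes, like the 9 nas- genes listed higher in the double mutant, were not listed for lin-65. Such differences were partly fixed by the selection. The protease nas-36 was 2.04 times as high in the double mutant as in lin-65 (1.03, SE 0.19, limma adjusted p = 2.49e-04), although both groups were below the baseline. It was listed for lin-65 alone, as lower, so this difference was partly fixed as well. Genes that did not pass were rol-1, dpy-5, dpy-13, lpr-1, mlt-2 and cutl-23, with differences of 0.19 to 0.46. Without met-2 replicate 1, 50 genes were higher and 0 lower, against 79.2% and 5.56% of all genes. All double mutant libraries were above all lin-65 libraries for 48 of the 54 genes and below them for 0, against 77.9% and 5.9% of all genes. With the library medians set to 0, 13 genes were higher, 6 of them nas- genes, 3 cut- genes and 2 cutl- genes, and rol-1 was lower, against 21.6% higher and 16.5% lower among all genes.

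**Figure D5:**
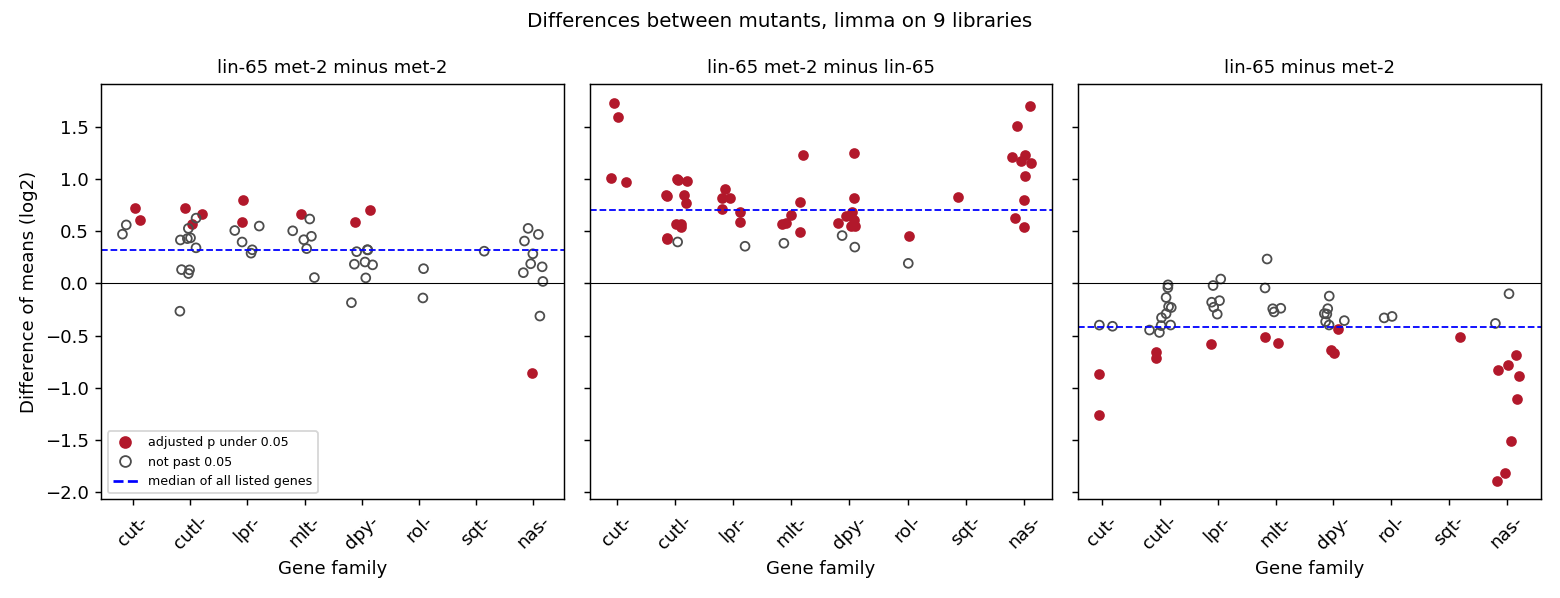
Difference of mean log2 values between mutants for each of the 54 genes by family, with filled points at a limma adjusted p under 0.05 and a dashed line at the median of the 2949 genes. In the right panel 8 of 10 nas- points are filled and most lie below the dashed line, and in the left panel nas-36 is the only filled point below 0.

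Fewest genes were called for the double mutant against met-2, and the count depended on which libraries were used. With all libraries 10 of the 54 genes were higher in the double mutant and 1 was lower, against 11.8% higher and 4.92% lower among all genes. Those higher were cut-3, cut-6, cutl-11, cutl-18, cutl-26, lpr-4, lpr-7, dpy-1, dpy-8 and mlt-9, and no nas- gene was. Of these genes dpy-8 was listed for the double mutant alone, so its difference was partly fixed by the selection. The largest was lpr-7 at 0.80 (SE 0.20, limma adjusted p = 0.0171), followed by cutl-11 at 0.72 (SE 0.20, adjusted p = 0.0222) and cut-3 at 0.72 (SE 0.24, adjusted p = 0.0462). The gene that was lower was nas-36, at 0.551 times met-2 (log2 difference −0.86, SE 0.19, limma adjusted p = 0.00668). Without met-2 replicate 1, 35 genes were higher and nas-36 was lower, against 59.7% and 6.71% of all genes. That count held 4 of 4 cut-, 9 of 13 cutl-, 6 of 7 lpr-, 6 of 7 mlt- and 6 of 10 dpy- genes, but 3 of 10 nas- genes. Without replicate 2 or replicate 3 of met-2, or replicate 2 or replicate 3 of the double mutant, 0 genes were higher and nas-36 stayed lower. Without double mutant replicate 1 the count of higher genes was 2. Without lin-65 replicate 1 or replicate 3 it was 4, as it was with the replicate number as a block. The share of all genes called in either direction fell as well, from 16.7% with all libraries. It was 5.19% to 7.63% without replicate 2 or 3 of met-2 or of the double mutant, and 6.58% without double mutant replicate 1. Without lin-65 replicate 1 or 3 it was 13.6% and 13.8%, and 13% with the block. All double mutant libraries were above all met-2 libraries for 23 of the 54 genes and below them for 1, against 27.7% and 8.07% of all genes. With the library medians set to 0, 4 genes were higher and 3 were lower, against 4.85% and 9.22% of all genes.

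The order of the mutants was alike for most of the 54 genes. The double mutant mean was the highest for 49, the lin-65 mean was the lowest for 52, and the double mutant lay above met-2 and met-2 above lin-65 for 47, or 87%. Over all 2949 genes the shares were 77.3%, 81.8% and 70.4% in the same sequence, and all 3 mutants share the baseline. The exceptions to a lowest value in lin-65 were lpr-1 and mlt-2. The genes lay on all 6 chromosomes, with 15 on X, or 27.8%, against 20.5% of listed genes with a position.

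Most other genes of the cuticle and epidermis that had values were listed higher in the double mutant, as were 85% of all 2949 genes. A gene had values only if it was listed for at least 1 mutant. Of 22 genes of molting control 10 had values, listed higher for 10, 4 and 10 (double mutant, lin-65, met-2). Among them the hedgehog-related qua-1 stood at 2.71 ± 0.08 in double mutant embryos, 1.82 ± 0.01 in lin-65 and 2.36 ± 0.35 in met-2, the period-related timing gene lin-42 at 2.28 ± 0.01, 1.58 ± 0.37 and 1.78 ± 0.16, and the patched-related ptr-4 at 2.20 ± 0.10, 1.36 ± 0.23 and 1.73 ± 0.39. In limma 9 of the 10 were higher in the double mutant than in lin-65, against 74.3% of all genes. Lower in lin-65 than in met-2 were 5, against 41.9%. The 1 gene higher in the double mutant than in met-2 was nhr-41, named after its value was seen, against 11.8% of all genes. Without met-2 replicate 1 these counts against met-2 were 2 lower in lin-65 and 8 higher in the double mutant. The shares of all genes were then 31% and 59.7%. Of 10 genes of the matrix before the cuticle and of body length 6 had values, with 5, 2 and 3 listed higher, led by lon-8, lon-1 and dyf-7. By limma 1 of the 6 was higher in lin-65 than in met-2 and 2 were lower, against 4.92% and 41.9% of all genes. The higher one was egg-6, a leucine-rich repeat protein of apical matrices named after its value was seen. Its difference was 0.69 (limma adjusted p = 0.00294). Because egg-6 was listed for lin-65 alone, as higher, this difference was partly fixed by the selection. Of 14 genes of collagen processing and cross-linking 3 had values, adt-1, aex-5 and tsp-15. All 3 were higher in the double mutant than in lin-65, against 74.3% of all genes.

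Epidermal regulators and attachment genes gave fewer values. Of 12 epidermal transcription factors 3 had values, grh-1 at 2.89 ± 0.06 in double mutant embryos, 1.73 ± 0.23 in lin-65 and 2.28 ± 0.29 in met-2, bed-3 at 2.15 ± 0.12, 1.44 ± 0.16 and 1.78 ± 0.48, and blmp-1 at 1.94 ± 0.12, 1.29 ± 0.23 and 1.63 ± 0.28. The other 9, elt-1, lin-26 and nhr-23 among them, had no row, and log2 ratios give no level, so the presence of epidermal cells was not measured. Of 12 genes of epidermal attachment and junctions 6 had values, listed higher for 6, 1 and 6, with the intermediate filament gene mua-6 highest at 2.79 ± 0.09 in double mutant embryos, 1.26 ± 0.17 in lin-65 and 2.10 ± 0.41 in met-2. All 6 were higher in the double mutant than in lin-65 by limma, against 74.3% of all genes. Lower in lin-65 than in met-2 were 3, against 41.9% of all genes. Without met-2 replicate 1 that number was 1, against 31%.

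Markers of muscle, neurons and intestine that had values moved in the same directions as most of the cuticle genes. Of 12 body wall muscle markers 10 had values, listed higher for 10, 3 and 10 in the double mutant, lin-65 and met-2, with library medians of 2.05 to 2.13, 0.89 to 1.23 and 1.50 to 2.08. Of 12 neuronal markers 10 had values, listed higher for 10, 1 and 9. Their library medians were 1.81 to 1.87, 0.57 to 0.83 and 1.09 to 1.82. Of 12 intestinal markers 6 had values, listed higher for 5, 0 and 6. Library medians for these were 1.98 to 2.07, 0.51 to 0.74 and 1.42 to 2.14. Most markers of the 3 lists were listed for met-2 but not for lin-65, so their differences were partly fixed by the selection. Lower in lin-65 than in met-2 by limma were 9 muscle, 7 neuronal and 6 intestinal markers, and without met-2 replicate 1 they were 8, 6 and 6. Among all genes the shares lower were 41.9% and, without that library, 31%. Oocyte and eggshell markers went the other way: 7 of 12 had values, listed higher for 3, 7 and 0. All 7 were thus listed for lin-65 and none for met-2, so their difference between these mutants was partly fixed by the selection. By limma all 7 were higher in lin-65 than in met-2. This held with and without met-2 replicate 1, against 4.92% and 5.83% of all genes. Their library medians were 0.92 to 0.94 in double mutant embryos, 1.46 to 1.86 in lin-65 and 0.10 to 0.50 in met-2. The tables hold ratios, so no summed level of a marker list can be given, and the part of these markers in the cuticle gene values was not tested.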

How the data were processed

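The build ce10 and the tool edgeR appear in the analysis per the submitters' processing notes, which give no role for them. For alignment, counting, scaling and gene selection, the method is not given in the sources used here. Deposited by the authors were 3 tables of log2 values, with 2638, 973 and 1941 genes for the double mutant, lin-65 and met-2, each with columns for the 9 mutant libraries. A gene in several tables had the same values in each. No header names the baseline; it was read as N2 because each mutated gene was far below 0 in the strains that carry its mutation and near 0 in the other single mutant. The molecule is labelled genomic DNA, but the protocols describe RNA, so RNA was assumed.

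Symbols came from the supplied table of WormBase gene names (2828 of 2949 identifiers had one) and positions from Ensembl 115, assembly WBcel235, which was used for chromosomes and gene order only. No sequences of these genes were used here.

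limma 3.58.1 (R 4.3.3) was fitted to the log2 values of all 2949 genes and 9 libraries to compare mutants, with no covariate, an eBayes prior and Benjamini-Hochberg adjustment at 0.05. The fit was tested on simulated data. The members, the gene lists and the tests were chosen with earlier results of these data known. In families of up to 4 genes all were named; in larger ones the 3 highest and the lowest by the mean over 9 libraries; also genes with a negative mean, and the 3 largest called differences in each direction and contrast. Further genes in the text were named to complete a family or a count. Of the other lists up to 3 genes were named by the same mean. Alternatives were library medians set to 0, a replicate block, array weights, a robust prior, a filter on the mean and each library left out; family counts without met-2 replicate 1 were added after seeing the data.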

Additional observations from a re-analysis of the deposited data

Results flagged for a closer look

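The molting protease gene nas-36 was singled out because all of its libraries in 2 mutants lay below the baseline and all of those in met-2 lay above it. It was listed for lin-65 alone, as lower, so its difference between lin-65 and met-2 was partly fixed by the selection. The limma difference from met-2 was −0.86 (SE 0.19, adjusted p = 0.00668) for the double mutant and −1.89 (SE 0.19, adjusted p = 8.52e-07) for lin-65. Over the alternatives the adjusted p ranged up to 0.0336 for the double mutant and up to 3.1e-05 for lin-65.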

How the results depend on the processing

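For the double mutant against met-2, 11 of the 54 genes were called (16.7% of all genes tested); there were 7 with library medians set to 0 (14.1%), 42 with array weights (75.9%) and 1 to 36 with a library left out (5.19% to 66.5%). The highest of these counts, 36, was without met-2 replicate 1; the count was 1 without double mutant replicate 2 or 3 or met-2 replicate 2 or 3, 3 without double mutant replicate 1, and 5 without lin-65 replicate 1 or 3. With the replicate number as a block it was 5 (13%); same-numbered libraries did not deviate together (r from −0.213 to 0.0424), so the numbers were not taken as pairing. The block gave 47 (75.7%) for the double mutant against lin-65 and 18 (42.8%) for lin-65 against met-2. For the double mutant against lin-65, 48 genes were called (78.9%), 14 with medians set to 0 (38.1%), 20 under the filter on a mean of at least 1 in all 3 mutants, which left 22 to test (80.9%), and 41 to 50 with a library left out (67.4% to 84.8%). For lin-65 against met-2 there were 19 (46.8%), then 10 (30.1%), 6 (33.6%) and 10 to 24 (30.6% to 53.1%), with 10 reached without lin-65 replicate 1. Setting medians to 0 removes any general shift, and the filter tests fewer genes.

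With medians set to 0, 17 double mutant minus lin-65 differences turned negative, none of them called: dpy-2 −0.033, dpy-3 −0.067, dpy-10 −0.10, dpy-14 −0.093, dpy-17 −0.0016, nas-12 −0.017, nas-28 −0.10, rol-3 −0.19, cutl-3 −0.21, mlt-11 −0.076, lpr-3 −0.059, mlt-3 −0.15, cutl-10 −0.10, cutl-28 −0.079, cutl-13 −0.071, mlt-8 −0.067 and cutl-24 −0.22. Another 18 lost their call and 13 kept it. The median of the 54 genes became 0.13 (double mutant), 0.024 (lin-65) and 0.023 (met-2), and with a library left out it was 1.57 to 1.66, 0.83 to 0.91 and 1.12 to 1.33. A mean above their libraries' medians over all genes was kept by 32 of the 52 genes listed higher in the double mutant. The count was 17 of 17 in lin-65 and 29 of 44 in met-2. The same share over all listed genes was not computed. A mean of at least 2, listed or not, was reached by 18, 2 and 10 genes for the double mutant, lin-65 and met-2. With a library left out, 50 to 51, 15 to 17 and 36 to 44 listed genes kept a mean of at least 1. Depth is unknown, so what it limits cannot be given.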
